A study of Mus musculus with 26 samples.

Results

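Cdc25a, Zc3hc1 and Ppp4r1 are genes of cell cycle regulators, and their transcripts were followed here in single mouse oocytes before and after the chromatin condensed around the nucleolus. These 3 transcripts were taken from the 38540 transcripts of the count table because the study lists them in its classifier of oocyte stage, which was built from the same oocytes. The study took transcripts that differed between the stages in these oocytes and were also listed by an earlier bulk RNA-seq comparison, and ranked them by adjusted p. The classifier was thus chosen on the comparison of the stages. All values of the 3 transcripts in that comparison are therefore given below as a description and carry no test. The oocytes were fully grown germinal vesicle (GV) oocytes of wild-type C57Bl6/Babr females, which were 12 weeks old, and they came from 2 mice called C and D, with no treatment in any group. After removal of the cumulus cells, each nucleus was scored with the DNA dye Hoechst: oocytes without a ring around the nucleolus were called NSN (non-surrounded nucleolus), those with a full ring SN (surrounded nucleolus) and those with a partial ring intermediate. Mouse C gave 5 of the 9 NSN and 9 of the 16 SN oocytes, mouse D gave 4 and 7, and the single intermediate oocyte came from mouse D. Oocytes are named below by mouse and number, such as C-9, and oocytes of 1 mouse share that animal.

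Fully grown oocytes rest in prophase of the first meiotic division, held there by low activity of the cyclin-dependent kinase CDK1 with cyclin B. Transcription stops as the chromatin closes around the nucleolus, and from then on the oocyte draws on RNA that it made earlier, some of which is kept dormant with a short poly(A) tail. Re-entry into meiosis needs CDC25 phosphatases, which remove inhibitory phosphates from CDK1. CDC25A, the product of Cdc25a, is one of these phosphatases. NIPA, the product of Zc3hc1, was described as an F-box-like protein of a ubiquitin ligase that keeps nuclear cyclin B low in interphase, and as a protein of the nuclear pore basket. The product of Ppp4r1 is a regulatory subunit of protein phosphatase 4, a serine/threonine phosphatase of the PP2A family. The poly(A) tail is set by elements at the end of the transcript, a polyadenylation signal in the nucleus and, for dormant RNA, cytoplasmic polyadenylation elements that are bound by CPEB proteins.

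Cdc25a lies at chr9:109875579-109893895 on the plus strand of GRCm38 (count row TCONS_00104403), and its longest coding model in GENCODE M21 has 15 exons, 3632 bases and a 3′ untranslated region (3′UTR) of 1676 bases. Zc3hc1 lies at chr6:30366380-30391028 on the minus strand (count row TCONS_00086831), and its model has 11 exons, 1865 bases and a 3′UTR of 393 bases. Ppp4r1 lies at chr17:65782573-65841926 on the plus strand (count row TCONS_00046299), and its model has 20 exons, 3850 bases and a 3′UTR of 906 bases. The models encode 514, 481 and 951 residues respectively. The annotation places no exon of another gene over the exons of these 3 genes. The oocyte transcript models that were counted are not in the files used here, so the 3′ ends below are those of the annotation and may differ from the ends used in the oocyte.

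The sites shown are those that bear on the poly(A) tail, since the RNA was captured by that tail. Capitals mark the motif in each stretch of 30 bases, and the polyadenylation signal nearest to the annotated end is shown for each gene.
Cdc25a, chr9:109893861-109893890, plus strand, 3′UTR: gcaggctctgcaAATAAAagtgatcttgaa
Zc3hc1, chr6:30366388-30366417, minus strand, 3′UTR: gtgacagtatttcttAATAAAgtgtttgct
Ppp4r1, chr17:65841878-65841907, plus strand, 3′UTR: taaatgtctacaAATAAAtgcagtatgtgg
All 3 annotated ends carry the canonical signal AATAAA, which was found in the last 200 bases of 68.0% of 16726 genes with a coding model. The motifs were searched on the transcript strand. Ppp4r1 has a further AATAAA upstream of the one shown, and Cdc25a has 1 ATTAAA, a weaker form of the signal, 1459 bases after the stop codon.

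The 3′UTRs differ more in the element used for cytoplasmic polyadenylation. Cdc25a holds 3 copies of TTTTAT, at 437, 511 and 982 bases after the stop codon, and 3 copies of TTTTAAT. Ppp4r1 holds 1 copy of TTTTAT and none of TTTTAAT, and Zc3hc1 holds neither.
Cdc25a, chr9:109893189-109893218, plus strand, 3′UTR: aaaaaaaagtcaTTTTATgagtcggaatat
Ppp4r1, chr17:65841336-65841365, plus strand, 3′UTR: gctttcttctggTTTTATttaacggctgat
The 3′UTRs differ in length, and a long one holds such short motifs more often. TTTTAT was present in 74.9% of the 3′UTRs at least as long as that of Cdc25a when their last 1676 bases were searched, in 56.6% for the length of Ppp4r1 and in 34.98% for the length of Zc3hc1. TTTTAAT was present at least once in 40.64% of the 3′UTRs searched at the length of Cdc25a. None of the copies lies in the last 200 bases of a model, where 23.2% of genes hold TTTTAT. The Pumilio motif TGTANATA and the AU-rich motif TATTTAT were absent from all 3 regions. TGTANATA was present in 31.54% of the 3′UTRs searched at the length of Cdc25a, 11.89% for Zc3hc1 and 21.01% for Ppp4r1. For TATTTAT the shares were 35.66%, 12.82% and 23.99% in the same order. Absence was thus the more common outcome at each length and does not set these genes apart. The map of the motifs along the 3′UTRs shows their spacing.

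**Figure D1:**
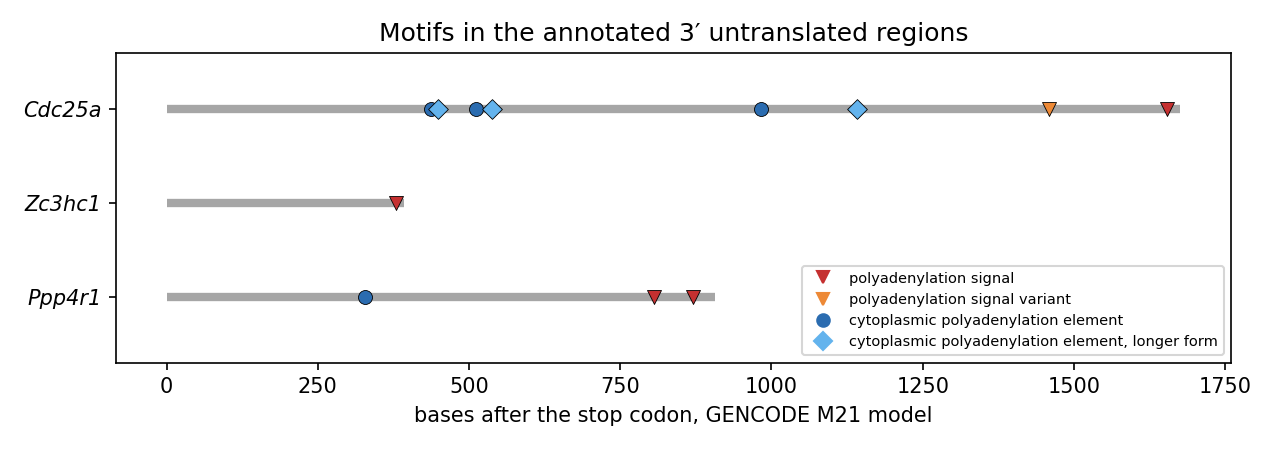
Motifs along the annotated 3′UTR of Cdc25a (1676 bases), Zc3hc1 (393 bases) and Ppp4r1 (906 bases), in bases after the stop codon, where grey bars are the 3′UTRs and symbols are motif matches. Cdc25a holds 3 cytoplasmic polyadenylation elements of each form, Ppp4r1 holds 1 of the shorter form and Zc3hc1 holds 0.

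Total counts were 1886716 to 2983344 in NSN oocytes, 1358383 to 3647827 in SN oocytes and 2163635 in the intermediate oocyte. Levels are given as CPM, the counts of a transcript scaled to a common total of all counts in an oocyte. A level is thus a share of the counted RNA, and a change in the total RNA of an oocyte cannot be seen in it. Molecules were not tagged before amplification, so a count is a read, and limits from counting cover that error only. Of 22 oocyte markers, 8 had a named transcript, and their summed level was 7335 to 10988 CPM in NSN and 7123 to 9173 CPM in SN oocytes. All 8 names came from the study's classifier, so these markers were chosen on the comparison of the stages. Of 23 granulosa and cumulus cell markers, 2 had a named transcript, Amh and Hsd3b1, and both names came from the study's list of transcripts missing from SN oocytes. Their summed level was 0.372 to 14.1 CPM in NSN oocytes, with a median of 5.27, and 0 to 16.3 CPM in SN oocytes, with a median of 0.572.

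Cdc25a was the most abundant of the transcripts and the only one with a higher mean CPM in SN oocytes. This is a larger share of the counts, and whether an SN oocyte held more Cdc25a RNA was not measured. It was present in all 26 oocytes, with 99 counts or more in each. In NSN oocytes Cdc25a ranged from 40.1 CPM in D-34 over a median of 51.5 to 73.1 CPM in D-11. In SN oocytes it ranged from 45.6 CPM in C-13 over a median of 71.9 to 111 CPM in C-21. The stages overlapped: 8 of 16 SN oocytes lay above all NSN oocytes, and 1 of 9 NSN oocytes lay below all SN oocytes. The NSN mean was 55.1 ± 10.9 CPM (SD, n = 9), and the SN mean, 75.2 ± 17.6 CPM (SD, n = 16), was 1.37-fold higher. On the log2 scale, after TMM scaling (edgeR's correction for library composition), the change of SN over NSN was 0.49 ± 0.12 (SE), and it was 0.57 ± 0.18 within mouse C and 0.36 ± 0.18 within mouse D.

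Depth moved with Cdc25a. The 3 smallest libraries, the SN oocytes C-19, C-20 and C-21, held the 3 highest levels, at 87.6, 105 and 111 CPM. Pearson's r of log2 CPM with log2 total counts was -0.60 over 9 NSN and -0.55 over 16 SN oocytes, where both measures come from the same library. Without these 3 libraries the log2 change was 0.38 ± 0.12 (SE), and with every library thinned to 1358383 counts it was 0.48 ± 0.14 (SE). Thinning keeps the expected share of each transcript in its library, so it cannot show whether the level moved with depth. The part of depth in the level of Cdc25a was not tested further.

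Zc3hc1 had the lowest level and the widest spread relative to its mean. All 9 NSN oocytes had at least 6 counts, from 2.01 CPM in C-7 over a median of 11.4 to 18.2 CPM in D-30. In SN oocytes the level ranged from 0 over a median of 1.10 to 8.54 CPM in D-28. Of the 16 SN oocytes, 6 had 3 counts or more and 10 had fewer, of which 2 had none. The SN oocytes without a count were C-17 and C-20, for which a count of 0 allows up to 1.70 and 2.20 CPM. Absence of the RNA could not be told from a low level at this depth, and with all libraries thinned to the same total 4 SN oocytes had no count.

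Between the stages, 12 of 16 SN oocytes lay below all NSN oocytes for Zc3hc1, and 5 of 9 NSN oocytes lay above all SN oocytes. The SN oocytes D-28 (16 counts), C-9 (14 counts), D-13 (9 counts) and C-19 (5 counts) lay above the NSN oocyte C-7. D-28, at 8.54 CPM, also lay above the NSN oocytes C-3 (6.675 CPM), C-6 (6.56 CPM) and D-11 (6.36 CPM). The SN mean was 1.99 ± 2.40 CPM (SD, n = 16), and the NSN mean, 10.3 ± 5.23 CPM (SD, n = 9), was 5.19-fold higher. The log2 change of SN over NSN was -2.35 ± 0.42 (SE). It was -2.23 ± 0.56 (SE) within mouse C and -2.45 ± 0.54 (SE) within mouse D. Without D-28, the SN oocyte with the highest level, it was -2.68 ± 0.40 (SE).

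Among the members, only Ppp4r1 separated the stages in every oocyte, and only at the full depth of each library. How many of all tested transcripts do so was not counted, so the separation is not shown to be particular to Ppp4r1. In NSN oocytes it ranged from 21.9 CPM in D-30 over a median of 30.2 to 40.6 CPM in D-14. In SN oocytes it ranged from 5.52 CPM in D-10 over a median of 10.1 to 18.8 CPM in C-9. The highest SN oocyte thus lay below the lowest NSN oocyte, and the separation is part of what placed the transcript in the classifier. The SN mean was 11.1 ± 4.07 CPM (SD, n = 16), and the NSN mean, 31.0 ± 6.35 CPM (SD, n = 9), was 2.79-fold higher. The log2 change of SN over NSN was -1.41 ± 0.18 (SE), with -1.20 ± 0.21 (SE) within mouse C and -1.75 ± 0.27 (SE) within mouse D. All SN oocytes kept at least 8 counts of Ppp4r1, so the RNA remained detectable in each of them. Pearson's r of its log2 CPM with log2 total counts was 0.20 over 9 NSN and 0.46 over 16 SN oocytes. Without the 3 libraries under 1500000 counts the log2 change was -1.33 ± 0.18 (SE). The part of depth in the level of Ppp4r1 was not tested further.

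**Figure D2:**
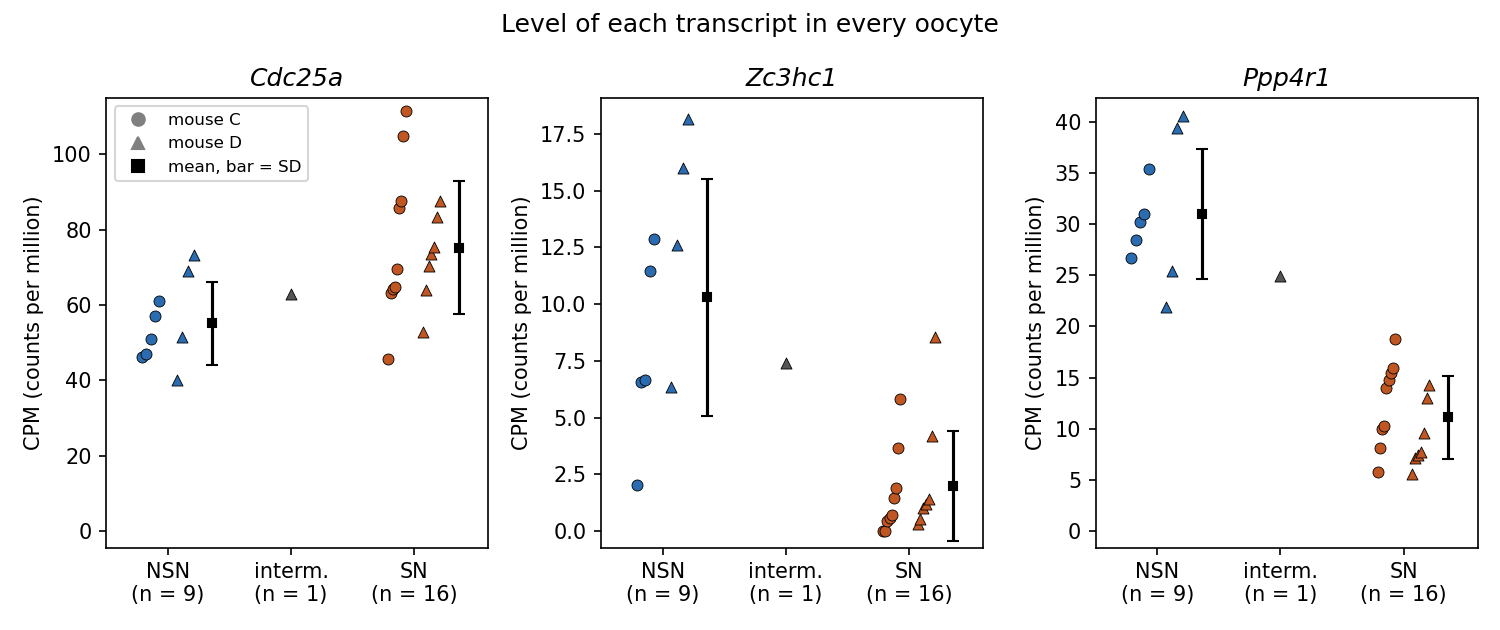
Level of Cdc25a, Zc3hc1 and Ppp4r1 in each oocyte in CPM, by stage, where circles are oocytes of mouse C, triangles those of mouse D, and squares with bars the mean ± SD of the 9 NSN and 16 SN oocytes. At the full depth of each library Ppp4r1 separates the stages (lowest NSN 21.9 CPM, highest SN 18.8 CPM), while Cdc25a and Zc3hc1 overlap.

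Across all transcripts tested between the stages, 13.5% (2244 of 16657) were called by edgeR's quasi-likelihood test at an adjusted p under 0.05, 8.07% lower and 5.4% higher in SN oocytes. The median log2 change of all tested transcripts was 0.01 with TMM scaling and -0.04 with scaling by library size only. TMM scaling itself centres the changes near 0, so these medians do not bear on the direction of a member. Each member kept its direction under both scalings. Of the tested transcripts, 76.1% had a lower mean CPM than Cdc25a in NSN oocytes and 81.3% in SN oocytes. For Ppp4r1 the shares were 65.0% and 46.5%, and for Zc3hc1 43.1% and 16.3%. Per kilobase of the annotated models, mean levels in NSN oocytes were 15.2 CPM per kb for Cdc25a, 8.05 for Ppp4r1 and 5.52 for Zc3hc1. The same levels in SN oocytes were 20.7 CPM per kb for Cdc25a, 2.88 for Ppp4r1 and 1.07 for Zc3hc1, so the order of the genes was the same in both stages.

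The ratio of 2 transcripts within an oocyte does not depend on how the library is scaled. Counts of Cdc25a per count of Ppp4r1, the phosphatase that activates CDK1 over the subunit of protein phosphatase 4, ran from 1.02 in D-34 over a median of 1.79 to 2.88 in D-11 among NSN oocytes. Among SN oocytes the same ratio ran from 3.26 in C-13 over a median of 7.04 to 19.3 in C-21, which had 8 counts of Ppp4r1. The smallest libraries, C-19, C-20 and C-21, had ratios of 10.8, 10.2 and 19.3, and D-10, a larger library, had 15.1. Whether the ratio moved with depth was not tested. The ratios of the stages did not overlap, a description only, since both transcripts were chosen on this comparison. The intermediate oocyte had a ratio of 2.52, within the NSN range. Counts of Cdc25a per count of Zc3hc1 had a median of 5.47 in NSN oocytes and of 68.0 in the 14 SN oocytes with a count of Zc3hc1, and here the stages overlapped, since D-28 had 6.19 and C-7 had 28.3. Counts of Ppp4r1 per count of Zc3hc1 overlapped widely, at 1.20 to 15 in NSN and 0.875 to 32.0 in SN oocytes.

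**Figure D3:**
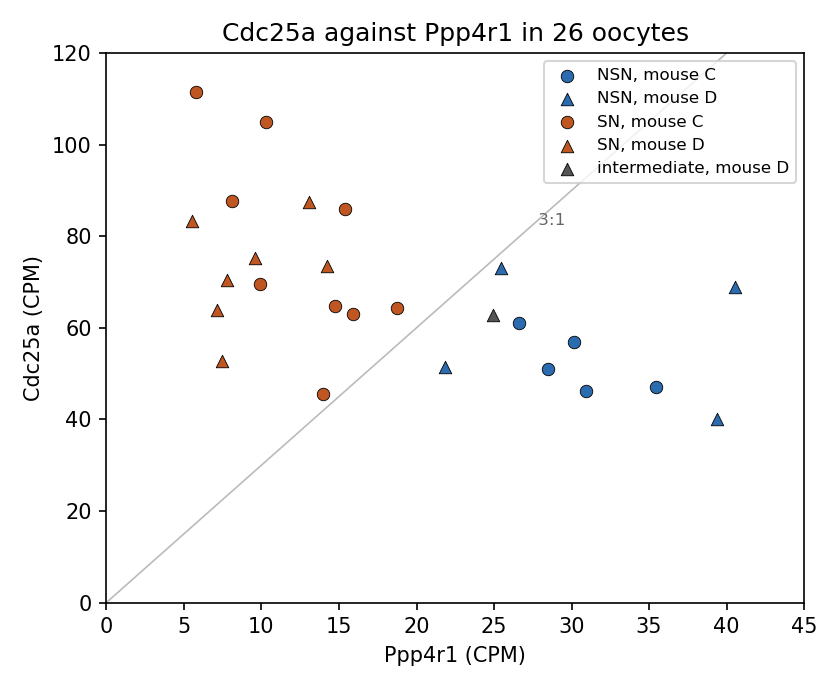
Level of Cdc25a against that of Ppp4r1 in 26 oocytes, both in CPM, with colour for stage, circles for mouse C and triangles for mouse D, and a grey line at 3 counts of Cdc25a per count of Ppp4r1. All NSN oocytes and the intermediate oocyte lie below the line (up to 2.88), and all SN oocytes lie above it (3.26 or more).

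The intermediate oocyte, D-15, took no part in any fit or test here, and it has no replicate. It had 136 counts of Cdc25a, or 62.9 CPM with an exact Poisson 95% interval of 52.7 to 74.4 CPM, which covers counting error only. This value lay inside the range of both stages. It had 16 counts of Zc3hc1, 7.39 CPM with an interval of 4.23 to 12.0 CPM, above 15 of 16 SN oocytes and above 4 of 9 NSN oocytes. It had 54 counts of Ppp4r1, 24.96 CPM with an interval of 18.8 to 32.6 CPM, above 16 of 16 SN oocytes and above 1 of 9 NSN oocytes. On the log2 CPM scale D-15 was 0.22 from the NSN mean and 1.22 from the SN mean of Ppp4r1, and 0.19 and 1.96 from those of Zc3hc1. For Cdc25a it was 0.27 from the NSN mean and 0.20 from the SN mean.

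The comparison of the mice was not used to choose the transcripts and was tested, with stage as a term. None of the 3 members was called by edgeR, against 0.036% (6 of 16657) of all transcripts, with 1784 transcripts at an unadjusted p under 0.05. DESeq2 called 165 of the 8001 transcripts to which it gave an adjusted p. Cdc25a and Ppp4r1 were not among those called, and Zc3hc1 had no adjusted p there. Cdc25a had a log2 difference of mouse D over mouse C of -0.02 ± 0.12 (SE, adjusted p = 0.981, edgeR), with a 95% interval of -0.26 to 0.23. In NSN oocytes its means were 52.4 ± 6.42 CPM (SD, n = 5) in mouse C and 58.4 ± 15.4 CPM (SD, n = 4) in mouse D, and in SN oocytes 77.4 ± 21.5 CPM (SD, n = 9) and 72.4 ± 11.7 CPM (SD, n = 7). The levels of the mice overlapped in both stages.

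Zc3hc1 had a log2 difference of mouse D over mouse C of 0.64 ± 0.43 (SE, adjusted p = 0.635, edgeR), and its 95% interval, -0.23 to 1.51, leaves room for a difference in either direction. Its means in NSN oocytes were 7.91 ± 4.34 CPM (SD, n = 5) in mouse C and 13.3 ± 5.14 CPM (SD, n = 4) in mouse D, and in SN oocytes 1.62 ± 1.96 CPM (SD, n = 9) and 2.46 ± 2.97 CPM (SD, n = 7). Ppp4r1 had a log2 difference of -0.26 ± 0.18 (SE, adjusted p = 0.642, edgeR) with a 95% interval of -0.62 to 0.10. Its means in NSN oocytes were 30.3 ± 3.30 CPM (SD, n = 5) in mouse C and 31.8 ± 9.56 CPM (SD, n = 4) in mouse D, and in SN oocytes 12.6 ± 4.22 CPM (SD, n = 9) and 9.25 ± 3.25 CPM (SD, n = 7). Oocytes of 1 mouse are not separate animals, so these tests measure the spread between oocytes.

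Whether the change between the stages differed between the mice was tested as an interaction. None of the members was called, and 0% (0 of 16657) of all transcripts were, with 994 at an unadjusted p under 0.05 and 0 called by DESeq2. The interaction, on the log2 scale and as mouse D minus mouse C, was -0.23 for Cdc25a (95% interval -0.73 to 0.28, adjusted p = 0.934, edgeR). It was -0.23 for Zc3hc1 (95% interval -2.10 to 1.63, adjusted p = 0.987, edgeR) and -0.56 for Ppp4r1 (95% interval -1.27 to 0.14, adjusted p = 0.852, edgeR). The interval was widest for Zc3hc1, the member with the fewest counts.

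**Figure D4:**
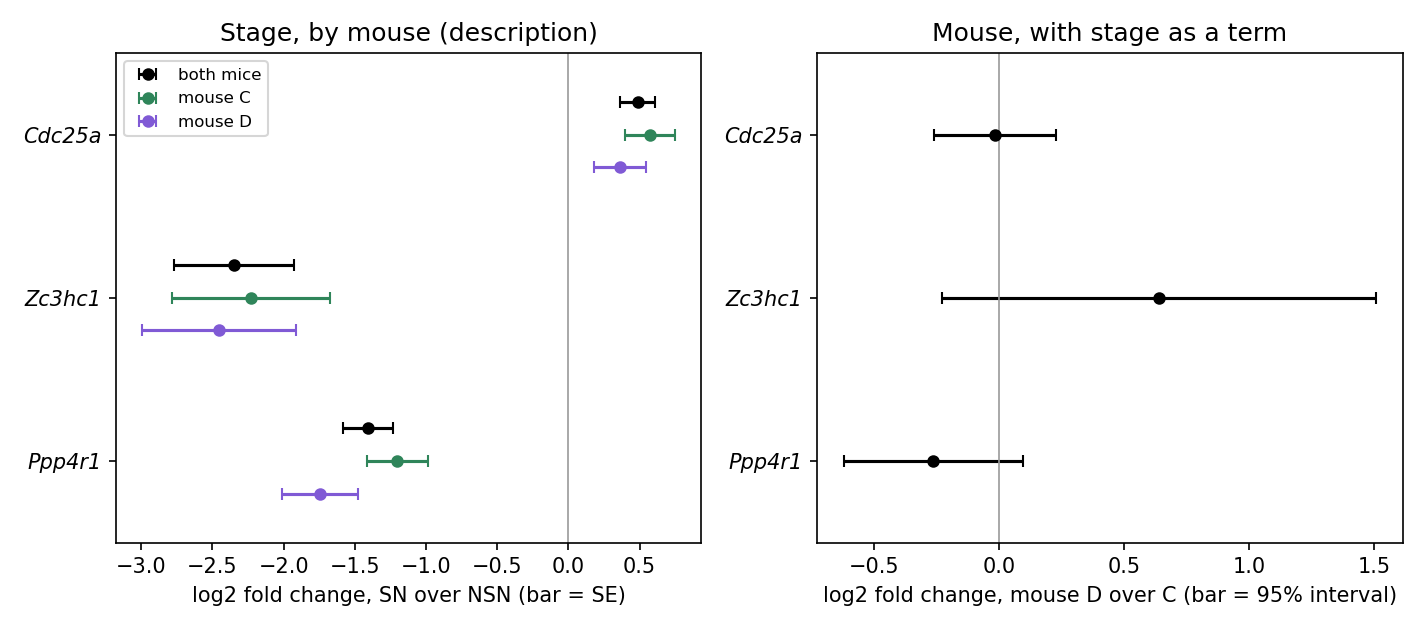
Left, log2 fold change of SN over NSN with its SE in all 25 oocytes (black), in mouse C (green) and in mouse D (purple), given as a description. Right, log2 fold change of mouse D over mouse C with its 95% interval, where the intervals of all 3 transcripts include 0 (-0.26 to 0.23 for Cdc25a, -0.23 to 1.51 for Zc3hc1 and -0.62 to 0.10 for Ppp4r1).

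Within a stage, the members varied to different degrees. The coefficient of variation of CPM among NSN oocytes was 19.8% for Cdc25a, where counting error alone gives 8.45%, 20.5% for Ppp4r1, where it gives 11.1%, and 50.8% for Zc3hc1, where it gives 19.3%. Among SN oocytes it was 23.3% for Cdc25a, 36.7% for Ppp4r1 and 121% for Zc3hc1, and counting error alone gives 8.24%, 20.5% and 50.2%. Among the 5 NSN oocytes of mouse C, Ppp4r1 varied by 10.9%, where counting error gives 10.9%, and among the 4 of mouse D by 30.04%, where it gives 11.35%. The biological coefficient of variation fitted by edgeR within the stages was 0.666 for Zc3hc1 against 0.390 for transcripts of like abundance, and 1.54% of tested transcripts exceeded their trend by more. For Cdc25a it was 0.196 against a trend of 0.220, and for Ppp4r1 0.263 against 0.272.

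**Figure D5:**
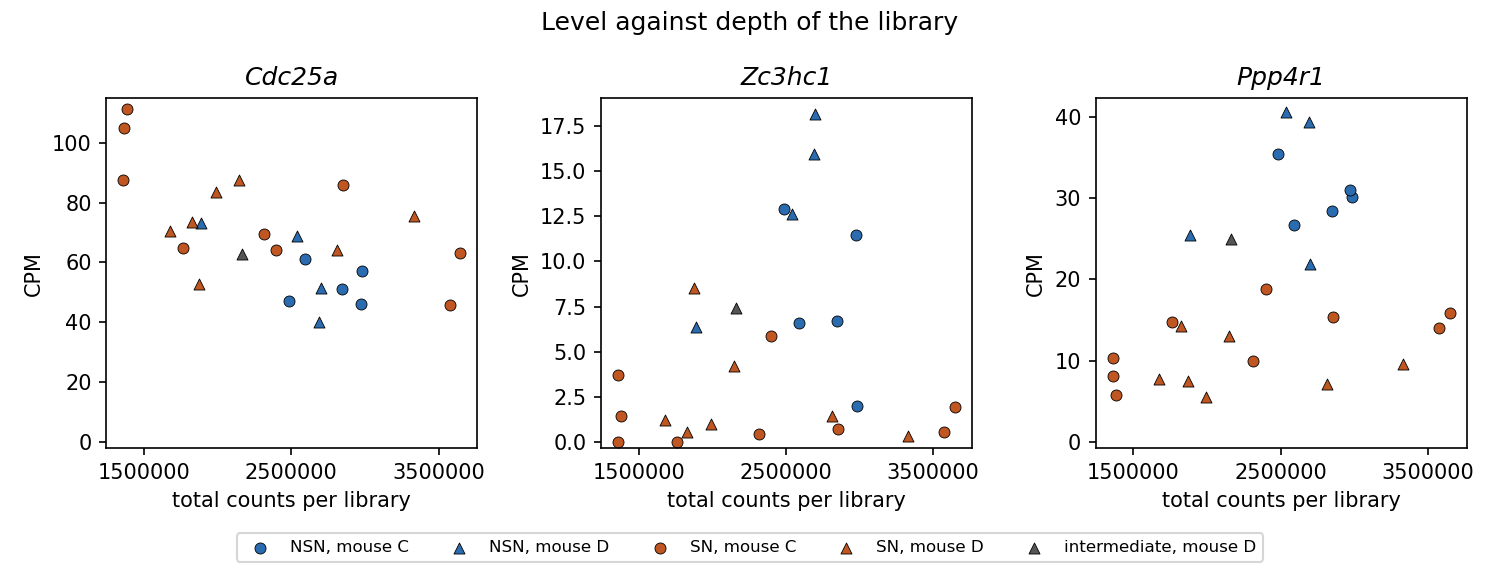
Level of each transcript in CPM against total counts of the library, one point per oocyte, with colour for stage, circles for mouse C and triangles for mouse D. The 3 libraries under 1500000 counts hold the 3 highest levels of Cdc25a (87.6, 105 and 111 CPM), while Ppp4r1 in them is 5.79 to 10.3 CPM.

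Oocytes that were high for one member were not regularly high for another within a stage. Pearson's r of log2 CPM between Zc3hc1 and Ppp4r1 was 0.24 over 9 NSN and -0.06 over 16 SN oocytes. Between Cdc25a and Ppp4r1 it was -0.33 in both stages, and between Cdc25a and Zc3hc1 -0.45 and -0.21. These are descriptions over oocytes that share mice and library depth. D-28, the SN oocyte with most Zc3hc1, had 7.47 CPM of Ppp4r1, below the SN median. C-7, the NSN oocyte with least Zc3hc1, had 30.2 CPM of Ppp4r1, the NSN median, and 57.0 CPM of Cdc25a.

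Markers of granulosa and cumulus cells, which surround the oocyte, were also set beside the members. C-9, the SN oocyte with most Ppp4r1 and the second most Zc3hc1, had the highest sum of the 2 named markers among SN oocytes, 16.3 CPM. Without C-9 the log2 change of SN over NSN was -1.47 for Ppp4r1 and -2.57 for Zc3hc1. D-30 and D-34, the NSN oocytes with most Zc3hc1, had the lowest marker sums among NSN oocytes, 1.482 and 0.372 CPM. D-28 had 1.60 CPM of the markers, and 7 of 16 SN oocytes had none. Both markers came from the list of transcripts missing from SN oocytes, so low sums in SN oocytes are part of that choice.

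The transcripts most like each member were found by Pearson's r of log2 CPM over 25 oocytes, among 16656 others. For Cdc25a the 3 highest values were 0.898 to 0.911, and the one with a name was Slc23a2 (r = 0.900), a transporter of vitamin C. For Zc3hc1 they were Uqcrc1 (r = 0.91), a core subunit of mitochondrial respiratory complex III, and Ran (r = 0.876), the GTPase that directs nuclear transport and spindle assembly, beside 1 transcript without a name. For Ppp4r1 they were Eif1a (r = 0.911), a translation initiation factor, and Astl (r = 0.898), the protease ovastacin of the cortical granules, beside 1 transcript without a name. Names were at hand only for transcripts on the study's lists and for those with an Ensembl identifier, and such likeness over both stages includes the stage difference itself.

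Once the mean of each stage within each mouse was subtracted, the likeness changed. Uqcrc1 was still among the 3 transcripts most like Zc3hc1 (r = 0.782), and the other places, with r from 0.767 to 0.903, went to transcripts without a name. Between the members, r over 25 oocytes fell from 0.62 to 0.07 for Zc3hc1 and Ppp4r1. It was -0.61 and then -0.30 for Cdc25a and Zc3hc1, and -0.67 and then -0.40 for Cdc25a and Ppp4r1.

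Other genes of the pathways around the members could be followed only where a name was at hand. These names come from the classifier or from the list of transcripts missing from SN oocytes, both chosen on the same comparison of stages, so the values below are a description with no test, and a count of directions would restate that choice. Of 36 genes of protein phosphatases 4 and 2A and the MASTL pathway, 1 other than Ppp4r1 was named, Strn3, a regulatory subunit of PP2A in the STRIPAK complex. Strn3 was at 4.43 to 22.1 CPM in NSN oocytes, with a median of 11.2, and at 0.597 to 10.7 CPM in SN oocytes, with a median of 2.21. The ranges of the stages overlapped, and the intermediate oocyte had 2.31 CPM.

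At the nuclear pore, where NIPA also resides, 4 of 35 genes were named. Ran had medians of 139 CPM in NSN and 56.7 CPM in SN oocytes, a log2 change of SN over NSN of -0.91 ± 0.16 (SE), and 81.8 CPM in the intermediate oocyte. Nup107, a scaffold nucleoporin, had medians of 146 and 184 CPM and a log2 change of 0.33 ± 0.10 (SE). Xpot, the exporter of tRNA, was at 0 in 10 of 16 SN and 1 of 9 NSN oocytes, and Kpna1, an importin, in 12 of 16 SN and 1 of 9 NSN oocytes. Both were on the list of transcripts missing from SN oocytes, which the study chose by counts of 0, so these zeros are part of that choice. Their NSN medians, 2.69 CPM for Xpot and 1.68 CPM for Kpna1, were near the 2.21 CPM that a count of 0 allows in the smallest library.

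Of 45 genes of the spindle, kinetochore, cohesin and checkpoint, 6 were named. Pcnt, a scaffold of microtubule organizing centres, had a log2 change of 0.52 ± 0.12 (SE), Nipbl, the cohesin loader, of 0.61 ± 0.15 (SE) and Bod1l of 0.51 ± 0.14 (SE). Rad21l, a meiotic cohesin subunit, had a median of 4.02 CPM in NSN and 0.429 CPM in SN oocytes. Of 32 genes of meiotic arrest and MAPK signalling, 6 were named. Patl2, an oocyte RNA-binding protein, had medians of 114 CPM in NSN and 47.2 CPM in SN oocytes, and its stages did not overlap, with a lowest NSN value of 77.9 and a highest SN value of 72.0 CPM. Adcy1, an adenylate cyclase, had medians of 24.45 and 10.9 CPM, with overlapping stages. Mapk11 had medians of 18.5 CPM in NSN and 8.89 CPM in SN oocytes. Cnot6l went the other way, with medians of 180 CPM in NSN and 271 CPM in SN oocytes and a log2 change of 0.50 ± 0.13 (SE). The stages overlapped for both. None of 24 genes of the DNA damage checkpoint had a name here.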

How the data were processed

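RNA of 26 single oocytes was measured. The authors captured polyadenylated RNA on poly-dT beads, amplified full-length cDNA by template switching and prepared Nextera XT libraries, which were sequenced as single-end reads. The submitters' processing notes name Trim Galore, HISAT2 2.1.0, SAMtools 1.19.2 and DESeq2 with GRCm38, and reads were counted in SeqMonk over a published oocyte transcriptome. The table that the authors deposited gives whole-number counts for each transcript and oocyte, not normalized. Strand use in counting is not given in the sources used here. A second deposited table holds the authors' own DESeq2 comparison of the stages (fold changes and p-values) and was not used. Of the sample columns, 0 were left unmapped. Groups came from the sample labels.

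A transcript was tested if 9 or more oocytes had 3 or more counts of it, which 16657 did. The tests used edgeR 4.0.16 in R 4.3.3, with TMM factors, the quasi-likelihood F test and Benjamini-Hochberg adjustment at a threshold of 0.05. The comparisons were of stages, of mice with stage as a term, and of their interaction. DESeq2 1.42.0 was an alternative and replaced 0 counts of the members. The SE is the log2 change divided by the root of its F. A prior count of 2 was used for log2 CPM. The edgeR fits were tested on simulated data with 200 transcripts changed. In 156 pairs of same-stage libraries, chi-square divided by its degrees of freedom was 2.78 to 21.6, and 0 pairs were identical. In the smallest library a count of 0 allows up to 2.21 CPM.

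The members and gene lists were chosen with earlier results of these data known. The text names the 3 members, those of the 3 transcripts most like each that had a name, and up to 4 members of each list with the smallest p. Kpna1 and Amh, which did not pass the filter and have no p, are named as well. Results for genes of 2 lists (entry into M phase, ubiquitin ligases) other than the members are not reported here. Names came from the study's classifier list (100 transcripts), its list of transcripts missing from SN oocytes (266) and GENCODE M21 (145 with Ensembl identifiers), and 38540 transcripts were counted in all. Gene models and 3′UTR sequences are from GENCODE M21 (GRCm38). Alternatives covered scaling, tool, filter, mouse, thinning and leaving out each oocyte. Leaving out the libraries under 1500000 counts was added after seeing the data. Python 3.11.15 was used for the descriptions.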

Additional observations from a re-analysis of the deposited data

How the results depend on the processing

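The log2 change of SN over NSN kept its direction for all 3 members under the other scaling, tool, filter, prior count, thinning and mouse block, within each mouse, and in libraries of at least 1500000 counts. It ranged from 0.36 to 0.57 for Cdc25a, from -2.45 to -2.15 for Zc3hc1 and from -1.75 to -1.20 for Ppp4r1. Without each of the 25 oocytes in turn it ranged from 0.43 to 0.54 for Cdc25a, from -2.68 to -2.21 for Zc3hc1 and from -1.48 to -1.36 for Ppp4r1.

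The difference between the mice was near 0 for Cdc25a and changed sign to 0.0012 with scaling by library size only, 0.0064 with thinned libraries, 0.12 in NSN oocytes only and 0.13 in libraries of at least 1500000 counts, and it ran from -0.049 to 0.043 without each oocyte in turn. For Ppp4r1 it changed sign to 0.046 in NSN oocytes only and ran from -0.33 to -0.20 without each oocyte. For Zc3hc1 it ran from 0.37 to 0.90 without each oocyte, and DESeq2 gave it no adjusted p. No alternative moved a member past the threshold, and adjusted p without each oocyte was 0.437 or more for all 3. The causes were not tested.

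The count of transcripts called between the mice, 6, was 0 with scaling by library size only, 53 without the filter, 0 with thinned libraries and 165 with DESeq2. That between the stages, 2244, was 1831 to 2705, and that of the interaction was 0 under every alternative run. The oocytes carry no replicate numbers shared between the stages, so the mouse was the block: with it, 2254 transcripts were called between the stages and the log2 change was 0.49 for Cdc25a, -2.33 for Zc3hc1 and -1.43 for Ppp4r1. Counts of 0 to 16 in SN oocytes limit every statement on Zc3hc1.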
